A study of Homo sapiens with 135 samples.

Results

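The regions described here are places in the genome of day 4 DMSO cells where TET1, TET2 and TET3 peaks lay on top of each other and where neither a CTCF peak nor an MBD3 peak was listed. They were chosen by the peaks of the 5 day 4 DMSO lists: a region of the TET1 list had to overlap, by at least 1 bp, a peak of the TET2 list and a peak of the TET3 list, and no peak of the CTCF or MBD3 list. This gave 2400 of the 45019 TET1 regions (5.33%), and 23.04% of the 10416 TET1 regions that carried all 3 TET proteins. The presence of the 3 TET proteins and the absence of CTCF and MBD3 on day 4 under DMSO are therefore the definition of these regions and not a finding.

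The cells belonged to the established human embryonic stem cell line H9 and were assayed by chromatin immunoprecipitation sequencing (ChIP-seq) on days 0, 4 and 9 of neural induction with a medium that contains inhibitors of SMAD signalling. On each day there were untreated cells (WT), cells with DMSO, the vehicle, and cells with the compound BPK25 at 20 µM. The 135 samples formed 45 groups of 3 replicates, of which 27 samples were input, and WT cells were assayed for CTCF and MBD3 but not for the TET proteins. Each of the 36 deposited peak lists pools the 3 replicates of 1 antibody, day and treatment, so every share below is 1 value per condition without replicate error. All groups come from 1 cell line, the replicates are not stated to be separate cultures, and the labels' protocols name antibodies for CTCF, MBD3 and TET1 but give none for TET2 or TET3.

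TET1, TET2 and TET3 are dioxygenases that oxidise 5-methylcytosine, a step on the way to DNA demethylation. TET1 and TET3 long forms carry a CXXC zinc finger that can bind CpG-rich DNA, while TET2 lacks one and is brought to DNA by partner proteins. TET1 is the form best known from pluripotent cells, and TET3 is known for its expression in neural cells. CTCF, a zinc finger protein, anchors chromatin loops and insulators, and it binds best to unmethylated DNA. MBD3 is a subunit of the NuRD complex, which joins nucleosome remodelling to histone deacetylation, and MBD3 itself has little affinity for methylated DNA.

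Lists ranged from 321 to 84203 regions (median 15353). A long list covers more of the genome, so shares of different lists were read beside 3 references: the share of all 45019 TET1 regions, called the background here, the share of the 8016 triple TET regions that did have CTCF or MBD3, and the share of the 2400 regions after moving them by 10 kb. The intervals in brackets or after "95% interval" are Wilson 95% intervals, which cover counting error only. In pooled chromatin, binding in fewer cells and weaker binding per cell cannot be told apart.

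The 2400 regions had modest peaks, between those of the whole lists and those of the triple TET regions with CTCF or MBD3. The values that follow in this paragraph come from the lists that chose the regions and are given as a description with no test. Median −log10 q was 3.35 for the TET1 peak, 3.28 for TET2 and 3.56 for TET3, against 4.30, 4.17 and 4.55 at the triple TET regions with CTCF or MBD3. Over all regions of the 3 day 4 DMSO lists it was 2.77, 2.78 and 3.31. Taking the weakest of the 3 peaks at each region, the median −log10 q was 2.22, with 1.48 at the 10th percentile, 3.60 at the 90th and 12.3 at the highest. Median fold enrichment over local background, as the authors' peak caller gave it, was 4.52 for TET1, 4.51 for TET2 and 4.27 for TET3, against 5.07, 4.96 and 4.83 at the triple TET regions with CTCF or MBD3. The median region was 267 bp wide, against 355 bp with CTCF or MBD3 and 193 bp for the 19279 TET1 regions with no other antibody. A pileup solved from fold enrichment and −log10 p had a median of 9 overlapping fragments under the TET1 and TET2 summits and 12 under the TET3 summit, over median local backgrounds of 1.19, 1.13 and 1.77 fragments. Over all regions of these lists the median pileups were 9, 9 and 11 fragments. Each region thus rests on few fragments per protein, which holds for the lists as a whole.

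The 3 summits lay close together within a region, which the overlap required by the definition favours. The distances come from the lists that chose the regions and are given as a description with no test. The median distance from the TET1 to the TET2 summit was 71 bp, from TET1 to TET3 74 bp, and from TET2 to TET3 86 bp. The span of the 3 summits had a median of 149 bp, and 889 regions (37.0%) held all 3 summits within 100 bp. An overlap of under 10 bp was the basis for TET2 at 22 regions and for TET3 at 15.

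The strongest region by its weakest TET peak lay at chr3:49824055-49824378 (hg19, 324 bp), where −log10 q was 12.3 for TET1, 12.9 for TET2 and 16.3 for TET3. It lay 152 bp from the nearest day 4 DMSO MBD3 peak and 61707 bp from the nearest CTCF peak. Its TET1 and TET3 peaks were listed again on day 4 under BPK25 and on day 9 under DMSO, and a CTCF peak was listed there in day 4 WT cells and in day 9 DMSO cells. The next region, chr22:18842309-18842493, had −log10 q values of 9.94, 10.1 and 10.8 for TET1, TET2 and TET3, and carried a TET1 peak in day 0 BPK25, day 4 BPK25 and day 9 DMSO cells together with an MBD3 peak in day 4 WT cells. At chr13:51796196-51796381 the 3 values were 14.3, 20.8 and 7.52, and all 3 TET proteins had also been listed on day 0 under DMSO. It was the only one of the 6 strongest regions with all 3 TET proteins on day 0 under DMSO. The remaining regions of this group were chr1:148000029-148000184, chr1:148007689-148007867 and chr1:184006681-184006925, with peaks in 5, 6 and 6 of the 31 lists outside the definition. Genes and sequences of these regions were not analysed here.

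Many of the regions lay close to CTCF or MBD3 without touching it. The median gap from a region to the nearest day 4 DMSO CTCF or MBD3 peak was 1156 bp, 840 regions (35.0%) lay within 500 bp of one, and 744 (31%) lay at least 5 kb away. The gap to MBD3 had a median of 1723 bp and the gap to CTCF a median of 15641 bp. The gap was longer where fewer TET proteins were listed, with a median of 2266 bp at the 5936 regions with TET1 and 1 other TET protein and 6323 bp at those with TET1 alone, of which 12.0% lay within 500 bp. Just inside the definition were 84 regions with a gap under 50 bp, and just outside were 136 triple TET regions that overlapped a CTCF or MBD3 peak by under 50 bp. Their weakest TET peak had the same median −log10 q of 2.09. The gaps and sets of this paragraph come from the lists that chose the regions and are a description with no test. Median width was 225 bp with TET1 and 1 other TET protein and 193 bp with TET1 alone. The part of width and peak strength in the gaps was not tested.

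**Figure D1:**
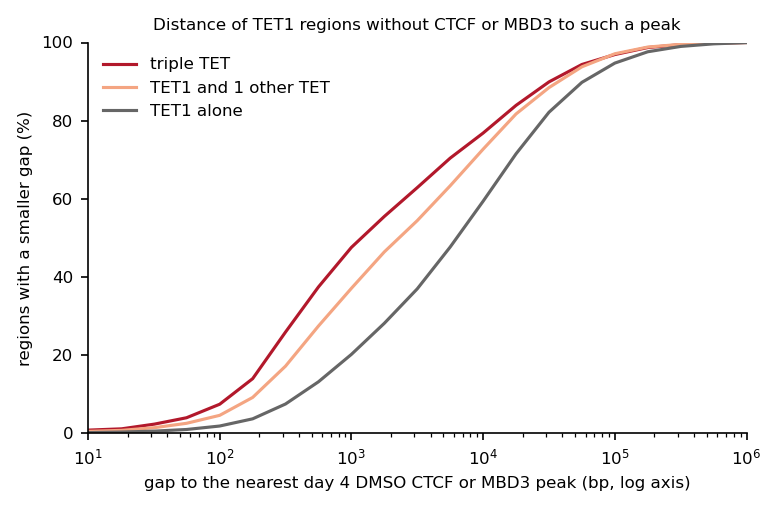
Cumulative share of day 4 DMSO TET1 regions without CTCF or MBD3 (vertical axis, percent) whose gap to the nearest day 4 DMSO CTCF or MBD3 peak is smaller than the value on the horizontal axis (bp, log axis), for regions with all 3 TET proteins, with TET1 and 1 other, and with TET1 alone. The curve of the triple TET regions runs above the other 2 over most of the range, with medians of 1156, 2266 and 6323 bp.

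The region nearest to the definition's edge, chr12:12420011-12420213, abutted a CTCF peak without overlapping it (gap 0 bp), and chr16:24550704-24550881 abutted an MBD3 peak and lay 2 bp from a CTCF peak. Both carried a TET3 peak again in day 9 DMSO cells. The most isolated region, chr2:155553957-155554486, lay 824315 bp from the nearest MBD3 peak and 1218264 bp from the nearest CTCF peak. An MBD3 peak was nonetheless listed there in day 4 WT cells and in day 9 BPK25 cells. The next most isolated regions, chr4:168155486-168155940 and chr12:82153260-82153593, carried peaks in 2 and 3 other lists, among them a CTCF peak under BPK25 on day 4 at the former and CTCF and MBD3 peaks in day 4 WT cells at the latter.

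MBD3 and CTCF, absent under DMSO by definition, were listed at some of the regions in the other day 4 lists, MBD3 more often in WT cells than under BPK25. In WT cells of the same day, 1156 regions (48.2%, 95% interval 46.2 to 50.2) had an MBD3 peak, against a background of 36.4%. The share was 78.1% at the triple TET regions with CTCF or MBD3, and 3.75% after moving the regions by 10 kb. The background includes regions with MBD3 under DMSO. Among regions likewise without CTCF or MBD3, the share was 30.6% with TET1 and 1 other TET protein and 10.8% with TET1 alone. A CTCF peak was listed in day 4 WT cells at 360 regions (15.0%, 95% interval 13.6 to 16.5), against a background of 11.3%, and 1239 regions (51.6%) had at least 1 of the 2. For comparison, the DMSO lists that the definition used held MBD3 at 35.5% and CTCF at 12.2% of all TET1 regions, and TET2 and TET3 at 36.3% and 35.5%. The WT MBD3 list was longer than the DMSO list, with 51109 against 46132 regions, while the WT CTCF list was shorter, with 18222 against 20675. MBD3 in day 4 WT cells was about as frequent at every distance, at 48.7% of the regions within 500 bp of a DMSO CTCF or MBD3 peak, 44.7% of those between and 51.3% of those at least 5 kb away.

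Over all 8 CTCF lists outside the definition, 881 regions (36.7%) had a CTCF peak at least once, against 25.3% of all TET1 regions. Over the 8 MBD3 lists, 1485 regions (61.9%) had an MBD3 peak at least once, against 49.0%. This left 701 regions (29.2%) with neither protein in any of these lists, against 46.1% of all TET1 regions and 72.8% of those with TET1 alone. The 46.1% does not count the day 4 DMSO lists, which held MBD3 at 35.5% and CTCF at 12.2% of all TET1 regions. It is therefore not a share without either protein in the whole series. Measured over the whole series, most of the regions therefore had MBD3 or CTCF in at least 1 condition.

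Under BPK25 on day 4 the 3 TET proteins were found at different shares of the regions. TET1 was listed at 1005 regions (41.9%, 95% interval 39.9 to 43.9; background 32.8%), TET3 at 472 (19.7%, 18.1 to 21.3; background 13.3%) and TET2 at 147 (6.12%, 5.23 to 7.16; background 6.23%). The lists differed in length, with 84203 regions for TET1, 12757 for TET3 and 13324 for TET2. TET2 and TET3 lists of nearly equal length thus covered 6.12% and 19.7% of the regions, whereas after moving the regions by 10 kb the shares were 1.21% and 0.917%. All 3 TET proteins were listed together at 16 regions (0.667%), 2 of them at 296 (12.3%), 1 at 984 (41.0%) and none at 1104 (46.0%). Of all TET1 regions 0.824% had 3 TET proteins, 9.89% had 2, 30.1% had 1 and 59.2% had none, so the triple share was not above that of all TET1 regions. Of the regions with 1 TET protein, 701 had TET1, 262 had TET3 and 21 had TET2. CTCF was listed under BPK25 at 10.2% of the regions (background 8.02%) and MBD3 at 4.33% (background 4.19%), against 24.2% and 10.1% of the triple TET regions with CTCF or MBD3, where the BPK25 MBD3 list held 15456 regions. The fall from DMSO on day 4 is built into the definition for the TET proteins and was not tested.

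By day 9 under DMSO, TET proteins were listed at 1384 of the 2400 regions (57.7%), against 37.1% of all TET1 regions and 78.9% of the triple TET regions with CTCF or MBD3. TET3 was listed at 938 regions (39.1%, 95% interval 37.1 to 41.1; background 24.5%), TET1 at 870 (36.2%, 34.4 to 38.2; background 23.3%) and TET2 at 490 (20.4%, 18.9 to 22.1; background 14.3%). After moving the regions by 10 kb the shares were 2.75%, 3.04% and 1.42%. TET1 and TET3 were listed together at 528 regions (22%), and all 3 at 220 (9.17%), against 14.0% and 6.60% of all TET1 regions. Of the 220 regions, 127 again had no CTCF or MBD3 peak in the DMSO lists of that day, as had 1451 of the 2972 such regions among all TET1 regions. At the regions with TET1 and no other antibody on day 4 TET1 was listed on day 9 at 6.21%, TET2 at 3.84% and TET3 at 5.70%. With TET1 and 1 other TET protein on day 4 the shares were 19.5%, 10.2% and 19.9%. Shares on day 9 under DMSO were thus higher where more TET proteins had been listed on day 4. Both of these sets had weaker TET1 peaks and narrower regions than the 2400. The part of strength and width was not tested.

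**Figure D2:**
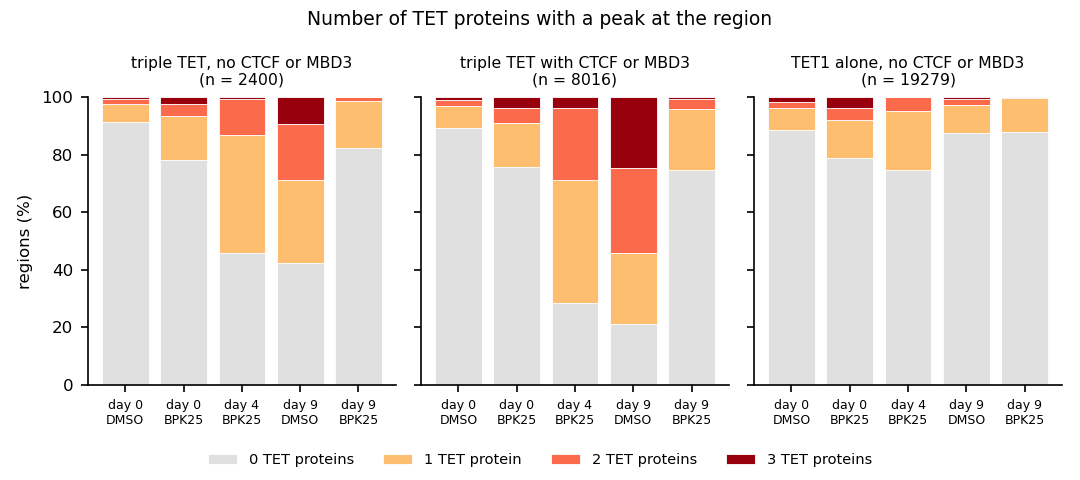
Share of regions (vertical axis, percent) with peaks of 0, 1, 2 or 3 TET proteins in each day and treatment outside the definition (horizontal axis), for the 2400 regions described, the 8016 triple TET regions with CTCF or MBD3 and the 19279 regions with TET1 alone. At the 2400 regions no TET protein was listed at 46.0% under BPK25 on day 4 and at 42.3% under DMSO on day 9, against 91.6% and 82.5% on day 0 under DMSO and on day 9 under BPK25.

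CTCF and MBD3 on day 9 covered few of the regions. CTCF was listed at 267 regions under DMSO (11.1%, 95% interval 9.93 to 12.4; background 8.13%), at 262 in WT cells (10.9%; background 7.66%) and at 39 under BPK25 (1.62%; background 1.5%). MBD3 was listed at 5.04% under DMSO (background 5.71%) and 2.21% in WT cells (background 2.54%), from lists of 44052 and 29341 regions, so these shares did not exceed the background. The background includes regions with MBD3 on day 4 under DMSO. Among regions likewise without CTCF or MBD3 on day 4, the shares with TET1 alone were 3.19% under DMSO and 1.33% in WT cells. With TET1 and 1 other TET protein they were 4.16% and 1.43%. Under BPK25 the MBD3 share was 17.4% (95% interval 16.0 to 19.0; background 15.2%), from a list of 44297 regions.

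On day 0, before induction, few of the regions had a listed peak under DMSO or in WT cells. Under DMSO TET1 was listed at 71 regions (2.96%, 95% interval 2.35 to 3.71; background 3.97%), TET2 at 21 (0.875%; background 1.45%) and TET3 at 179 (7.46%, 6.47 to 8.58; background 9.28%). All 3 shares lay below the background, and below the 4.14%, 1.76% and 10.8% of the regions with TET1 alone on day 4. The TET lists differ in length from those of day 4, with 8577, 3485 and 37154 regions on day 0. The day 0 CTCF lists were short, with 1843 regions under DMSO and 976 in WT cells. A missing peak in such lists does not show that a region was unbound. CTCF was listed at 7 regions (0.292%; background 0.624%) and MBD3 at 9 (0.375%; background 3.63%) under DMSO. In WT cells CTCF was listed at 18 regions (0.75%; background 0.606%). MBD3 was listed there at 29 regions (1.21%, 95% interval 0.843 to 1.73; background 7.29%), while the triple TET regions with CTCF or MBD3 had MBD3 at 19.3%. Regions that carried CTCF or MBD3 on day 4 thus also had the higher MBD3 share before induction. The MBD3 backgrounds include such regions, which the definition leaves out. Among regions likewise without CTCF or MBD3, the day 0 MBD3 share with TET1 alone was 0.778% in WT cells and 0.415% under DMSO. With TET1 and 1 other TET protein the shares were 1.40% and 0.539%. Low MBD3 shares were thus common to the sets without CTCF or MBD3 and not particular to the triple TET regions.

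Under BPK25 on day 0 TET1 was listed at 16.2% (390 regions, 95% interval 14.8 to 17.8; background 16.1%), TET2 at 9.79% (background 10.3%) and TET3 at 4.54% (background 5.46%). The corresponding shares at the triple TET regions with CTCF or MBD3 were 16.4%, 13.3% and 6.86%. The TET1 list behind the first of these held 72148 regions. CTCF was listed at 1.71% (background 1.51%) and MBD3 at 1 region (0.0417%; background 0.431%). The MBD3 share was 0.0571% at the regions with TET1 alone and 0.0842% at those with TET1 and 1 other TET protein.

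**Figure D3:**
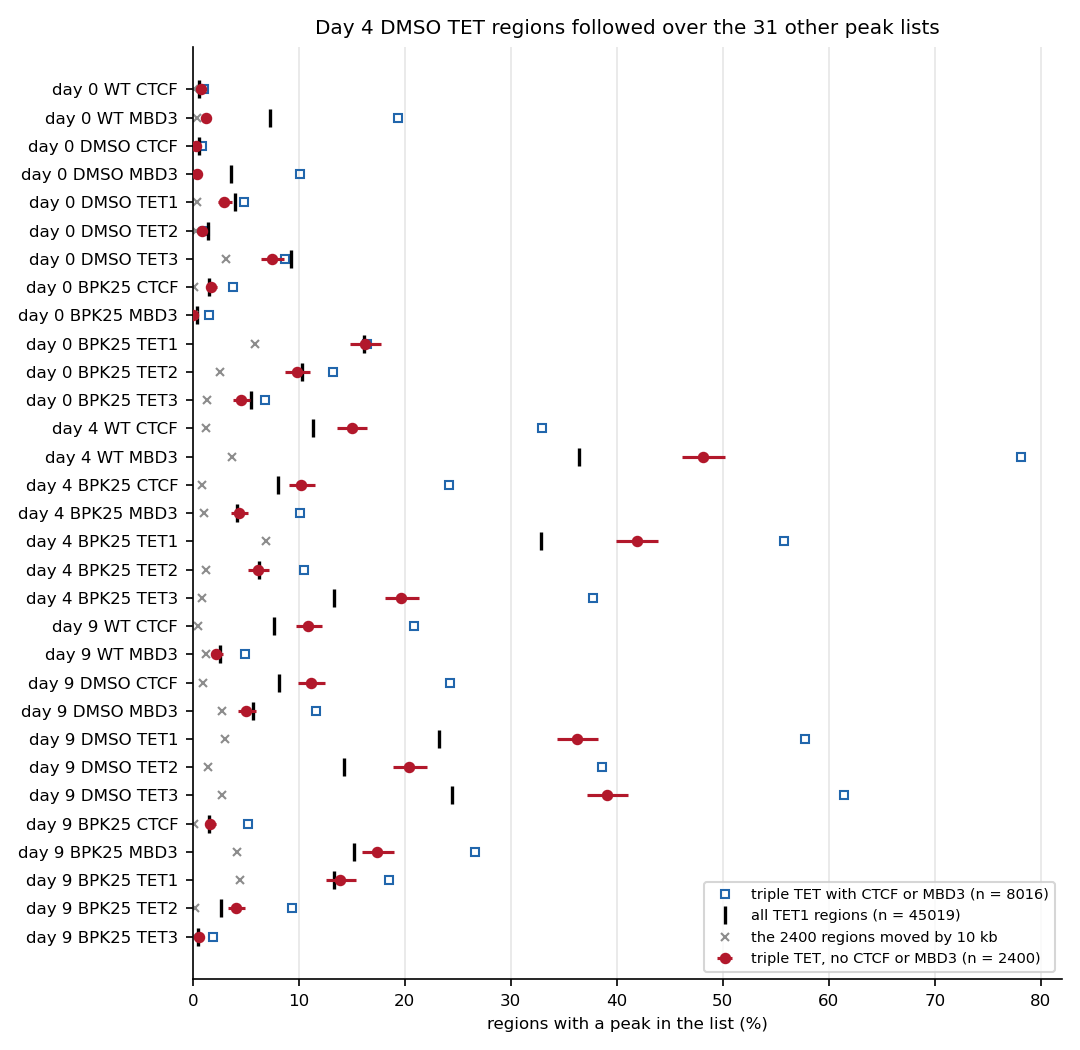
Share of regions with a peak (horizontal axis, percent) in each of the 31 lists outside the definition (vertical axis), for the 2400 triple TET regions without CTCF or MBD3 (filled circles with Wilson 95% intervals), the 8016 triple TET regions with CTCF or MBD3 (squares), all 45019 TET1 regions (bars) and the 2400 regions moved by 10 kb (crosses). The circles lie left of the squares in each list shown, lie above the bars for the day 9 DMSO TET lists, and reach their highest value, 48.2%, in the day 4 WT MBD3 list.

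The TET shares at these regions under BPK25 and DMSO were compared on the days that the definition did not use. On day 9 the TET1 share was 36.2% under DMSO and 13.9% under BPK25 (background 13.3%), the TET2 share 20.4% and 4.04% (background 2.64%), and the TET3 share 39.1% and 0.583% (background 0.526%). All 3 TET proteins were listed together at no region under BPK25 on day 9 (0 of 2400, Wilson 95% upper bound 0.160%). Among all 45019 TET1 regions there were 50 (0.111%). The day 9 BPK25 TET3 list held 321 regions, so few triple regions could be found, and no difference was tested. On day 0 the TET1 share was instead 2.96% under DMSO and 16.2% under BPK25, and the TET2 share 0.875% and 9.79%, while the TET3 share was 7.46% and 4.54%. The mean difference, BPK25 minus DMSO, was -9.65 ± 19.8 percentage points (SD over 6 pairs). It was negative for 4 pairs and positive for 2, and a two-sided exact sign-flip test over the pairs gave p = 0.281, also after Benjamini-Hochberg adjustment over 2 tests (smallest possible p 0.0312). Lists of 1 day and treatment may have an input in common, so the 6 pairs are not fully independent. The pairs are different antibodies and days with 1 pooled list per condition, and not replicates. The p-value therefore does not measure variation between samples, and the test cannot decide whether BPK25 shifted the shares.

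List length moved with these differences. On day 9 the BPK25 lists held 43694, 1928 and 321 regions for TET1, TET2 and TET3, against 24572, 15250 and 25543 under DMSO, and on day 0 the TET1 and TET2 lists were longer under BPK25. With each pair of lists cut to the shorter length by −log10 q, the day 0 differences were -0.13, 0.38 and 0.71 percentage points for TET1, TET2 and TET3, and the day 9 differences for TET2 and TET3 were 0.46 and 0.17. The lists of 1928 and 321 regions leave little room for a difference at 2400 regions. The day 9 TET1 difference was -26.8 points at equal length, with 36.2% against 9.50%, where the triple TET regions with CTCF or MBD3 had 57.7% against 12.0% and all TET1 regions 23.3% against 8.72%. Of the 2400 regions, 734 had TET1 on day 9 under DMSO only, 198 under BPK25 only and 136 under both. Day 9 TET1 was thus the pair in which the lower share under BPK25 was also found at equal length, and with 1 list per condition it has no replicate check.

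The closest set for comparison was the triple TET regions with CTCF or MBD3. The 2400 regions had a lower share than these in each of the 15 TET lists outside the definition, with differences from -22.4 to -0.17 percentage points and a mean of -7.94 ± 8.29 points (SD over 15 lists). The exact two-sided sign-flip p over lists was 6.1e-05, the smallest that 15 lists can give, and 0.000122 after Benjamini-Hochberg adjustment over 2 tests. The lists were read at the same 2 sets of regions and are not replicates. This p-value thus describes how uniform the sign was over lists, and not a spread between samples. An input may be common to the 3 TET lists of a condition, and with 1 mean per day and treatment all 5 values were lower (from -20.7 under DMSO on day 9 to -1.12 under DMSO on day 0), with an exact p of 0.0625, the smallest that 5 values can give. Beside the triple TET regions with MBD3 and no CTCF the mean difference was -5.81 points, and beside those with CTCF it was -10.9.

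Peak strength differed between the 2 sets, and in the lists with most peaks at these regions the share was higher where peaks were stronger. Among regions whose weakest day 4 DMSO TET peak had a −log10 q of under 2, TET1 was listed on day 9 under DMSO at 29.7% of the 829 regions without and 47.1% of the 1532 regions with CTCF or MBD3. At a −log10 q of at least 4 the shares were 53.4% of 189 (95% interval 46.3 to 60.4) and 73.3% of 2119 (71.4 to 75.2). For MBD3 in day 4 WT cells they rose from 41.7% to 65.1% without and from 70.6% to 85.7% with CTCF or MBD3. This did not hold in each list: for TET1 under BPK25 on day 0 the share of the regions without CTCF or MBD3 was 17.9% in the weakest range and 13.8% in the strongest. Within the 4 ranges of strength the mean difference over the 15 TET lists lay between -4.82 and -10.5 points. The regions without CTCF or MBD3 had the lower share in 12, 10, 13 and 15 of the 15 lists from the weakest range to the strongest. The lists with a higher share were day 0 lists, apart from TET3 under BPK25 on day 9 in the range of 2 to 3. In the weakest range these included TET1 under BPK25 on day 0, with 17.9% against 14.4%, and TET3 under DMSO on day 0, with 7.84% against 7.11%. Counting a peak only where it covered the TET1 summit base, the mean difference was -6.26 points. Region width also differed between the 2 sets, and its part in the difference was not tested.

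**Figure D4:**
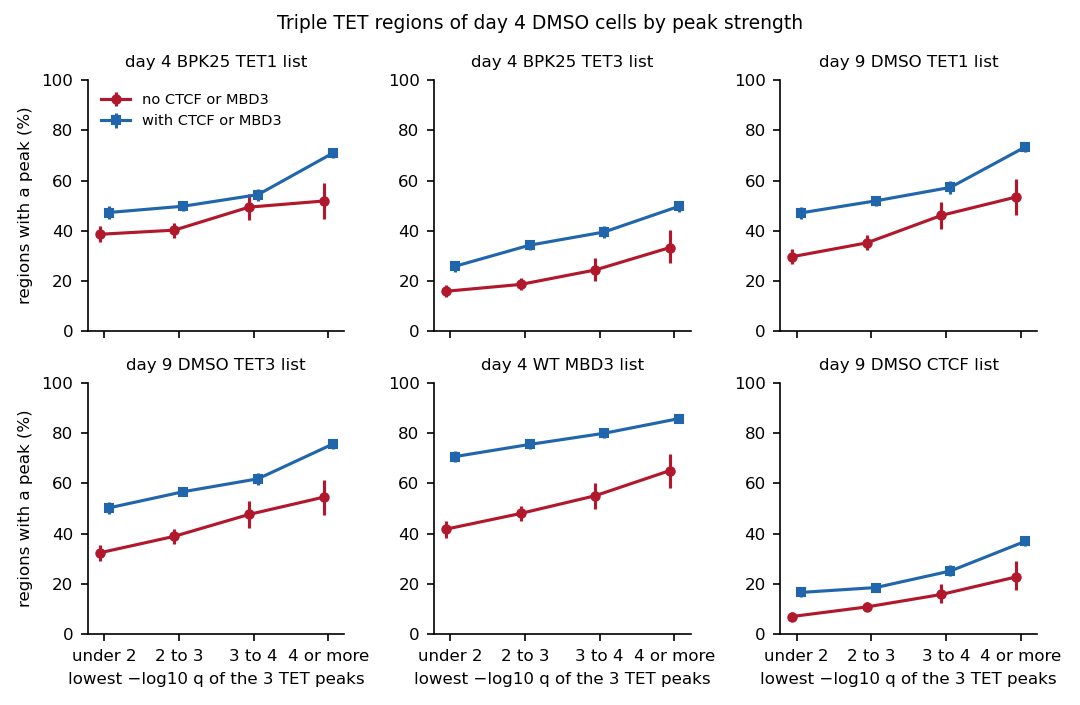
Share of triple TET regions with a peak (vertical axis, percent) in 6 lists outside the definition, by the lowest −log10 q of the 3 day 4 DMSO TET peaks (horizontal axis), for regions without (circles) and with (squares) CTCF or MBD3. Bars are Wilson 95% intervals. Both curves rise with strength in each panel, and the circles lie below the squares in each range, for instance at 53.4% and 73.3% for day 9 DMSO TET1 in the strongest range.

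The regions were not uniform among themselves. The 1239 regions with CTCF or MBD3 in day 4 WT cells had TET3 on day 9 under DMSO at 48.1% (95% interval 45.3 to 50.9), against 29.5% (26.9 to 32.1) of the 1161 without. For day 9 DMSO TET1 the shares were 43.3% and 28.8%, and for day 4 BPK25 TET3 they were 26.8% and 12.1%. On day 4 under BPK25 TET1 did not follow this split, with 40.2% (37.5 to 43.0) and 43.7% (40.8 to 46.5). On day 0 the order was the reverse, with TET3 under DMSO at 4.60% and 10.5% and TET1 under BPK25 at 11.3% and 21.5%. The 1239 regions also had a higher median weakest −log10 q than the 1161, 2.31 against 2.09, and a larger median width, 283 against 253 bp. The part of strength and width in this split was not tested. The 267 regions with a CTCF peak on day 9 under DMSO had TET1 in the same condition at 66.7% (60.8 to 72.0), against 32.4% (30.5 to 34.5) of the other 2133, and TET3 at 64.8% against 35.9%. The regions with a day 9 CTCF peak also had stronger day 4 peaks, with a median weakest −log10 q of 2.77 against 2.13, and the part of strength in that difference was not tested.

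Distance from CTCF or MBD3 went with smaller differences. On day 9 under DMSO TET3 was listed at 45.2% of the regions within 500 bp of a day 4 DMSO CTCF or MBD3 peak, 36.03% of those between 500 bp and 5 kb and 35.5% of those farther away. For TET1 the shares were 40.1%, 33.3% and 35.1%, and for TET1 under BPK25 on day 4 they were 39.8%, 45.7% and 40.1%.

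A region had a peak in a median of 3 of the 31 lists outside the definition, against 6 for the triple TET regions with CTCF or MBD3 and 1 for the regions with TET1 alone. No other list held a peak at 189 regions (7.88%), against 24.3% of all TET1 regions. The strongest of these were chr3:134094036-134094208, chr5:149789415-149789572, chr7:97952958-97953215 and chr1:118276970-118277356, with a weakest TET −log10 q of 5.15, 4.98, 4.75 and 4.30. At the other end 75 regions (3.12%) had peaks in at least 10 lists, against 4.32% of all TET1 regions and 14.9% of the triple TET regions with CTCF or MBD3. The regions at chr10:1092686-1093278 and chr5:117877783-117878056 had peaks in 20 lists, in each case with CTCF in day 0 WT, day 4 WT and day 9 DMSO cells. Those at chr4:7365217-7365811 and chr6:167801748-167802059 followed with 17 lists.

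Chromosome 1 held 556 of the 2400 regions (23.2%), against 17.0% of all TET1 regions, 26.9% of the triple TET regions with CTCF or MBD3 and 13.2% of the regions with TET1 alone. Chromosome 2, the next in size, held 5.62%. The share of whole lists on chromosome 1 was 8.40% to 13.2% on day 0, 13.2% to 20.7% on day 4 and 13.8% to 25.2% on day 9. In the day 4 DMSO TET1 list the median local background was 1.49 fragments on chromosome 1 and 1.11 elsewhere, and 5.11% of its chromosome 1 regions sat at the list's lowest background against 45.6% of the others. The part of this background in the number of regions was not tested. The day 9 DMSO TET1 share was 36.7% at the regions on chromosome 1 and 36.1% elsewhere, and the day 4 BPK25 TET1 share was 36.5% and 43.5%. The regions were spread out, with a median of 124315 bp to the nearest other region of the set and 320 (13.3%) within 10 kb of one.

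**Figure D5:**
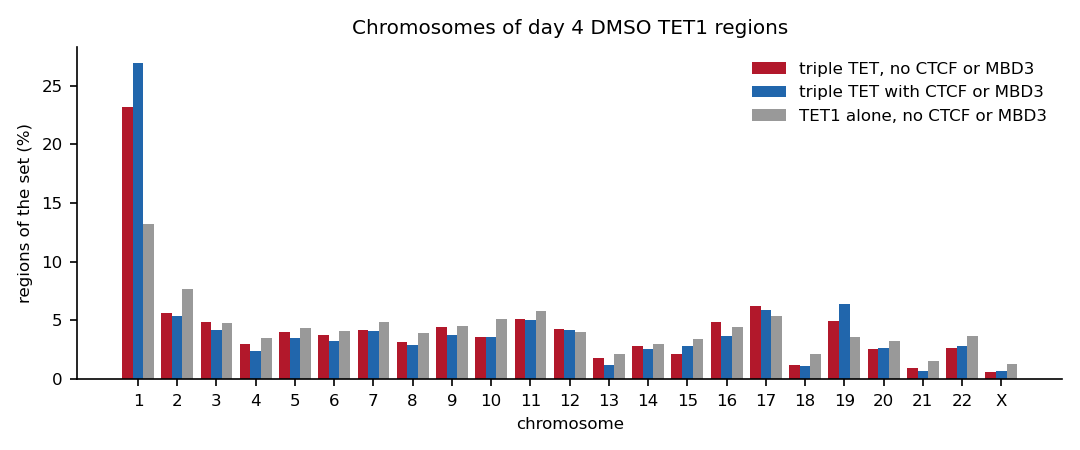
Share of regions (vertical axis, percent) on each chromosome (horizontal axis) for the 2400 triple TET regions without CTCF or MBD3, the triple TET regions with CTCF or MBD3 and the regions with TET1 alone in day 4 DMSO cells. Chromosome 1 stands above the others in each set, at 23.2%, 26.9% and 13.2%.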

How the data were processed

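ChIP-seq peak lists of CTCF, MBD3, TET1, TET2 and TET3 in H9 cells were analysed. Build hg19, MACS2 2.1.2, Bowtie2 2.3.4, bedtools 2.25.0, FastQC 0.11.7 and SAMtools 1.9 appear, roles unstated, per the submitters' processing notes. Per the labels each list pools 3 replicates, and the input behind a list is not given in the sources used here. The authors deposited, per peak, a linear fold enrichment (ratio to local background), −log10 p-values and −log10 q-values (highest q-value 0.05). Depth is unknown.

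Rows of 1 interval were collapsed to the region of highest −log10 q. Overlap meant at least 1 bp. Pileups were solved from fold enrichment and −log10 p (up to 12, tolerance 0.01) under a Poisson law. Exact sign-flip tests (2) over lists were run, 1 value per list. The test plan named fewer TET lists outside the definition than the 15 that exist, and all 15 were used. The members and lists were chosen with earlier results of these data known. Comparisons of strength ranges, summit bases, chromosome 1 and conditions were added after the data were seen.

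Named regions, none from chromosome 8, were the 6 of highest weakest TET −log10 q, the 4 with peaks in most other lists, the 4 strongest with none, and the 3 nearest to and 3 farthest from CTCF or MBD3. Annotation of build hg19 was not used here, so genes and sequences were not analysed. Python 3.11.15 was used with matplotlib 3.10.9, scipy 1.17.1, pandas 2.3.3 and numpy 2.4.6. Overlaps were checked against bedtools 2.31.1, which also found 2400 regions. On simulated data over the 45019 regions a planted share of 30.0% was recovered as 30.1%, and 100% of 970 pileups were recovered.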

Additional observations from a re-analysis of the deposited data

Results flagged for a closer look

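The share of the 2400 triple TET regions with a TET1 peak was 13.3 percentage points higher under BPK25 than under DMSO on day 0 and differed by -22.3 points on day 9, so the 2 days went in opposite directions. For TET2 the differences were 8.92 points on day 0 and -16.4 points on day 9. With 1 list per condition the difference between the days was not tested. At equal list length the TET1 differences were -0.13 and -26.8 points and the TET2 differences 0.38 and 0.46 points. For TET2 on day 9 this meant lists of 1928 regions and shares of 3.58% and 4.04%, which leaves little room for a difference.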

How the results depend on the processing

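The number of triple TET regions without CTCF or MBD3 was 386 at a −log10 q limit of 5, 1318 at a fold enrichment of at least 4, 1560 and 744 with no CTCF or MBD3 peak within 500 bp and 5 kb, and 1161 when day 4 WT peaks were excluded too. Under 7 other alternatives it was 1844 to 2400. The median of the shares over the 31 lists, 6.12%, was 4.15% and 2.88% at the same limits of strength, 4.63% with reciprocal overlap of at least 50%, 4.65% without day 4 WT peaks, 3.83% with TET lists of equal length and 4.71% at the TET1 summit base, and 5.66% to 6.72% under 7 others. The cause was not tested. The mean BPK25 minus DMSO difference changed sign to 6.43 points with day 9 left out. Under 22 other alternatives it was -25.7 to -4.12, none past the threshold (exact sign-flip test, adjusted p 0.219 to 0.969). Leaving out 1 day left 3 pairs and leaving out 1 TET protein left 4, too few for this test to pass the threshold. A comparison added after the data were seen took the BPK25 minus DMSO differences at triple TET regions with CTCF or MBD3. The differences at the 2400 regions minus these gave 8.01 ± 10.2 points (SD, 6 pairs, exact sign-flip test, p = 0.188). The lower mean share than at triple TET regions with CTCF or MBD3 held under 26 alternatives, from -12.2 to -3.98 points (exact sign-flip test, adjusted p 0.000122 to 0.0387), except that with 1 mean per day and treatment the smallest possible p is 0.0625. The p-values of both tests are over pairs or lists, which are not replicates. No paired analysis was possible because replicates, and with them the replicate numbers, were pooled into 1 list each. The pairs tested were lists of 1 antibody and day, and leaving out a replicate could not be run. Median pileups of 9 to 12 fragments limit what each list can show.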
